A study of Mus musculus with 12 samples.

Results

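Transcripts of 10 genes that encode laminin chains and the laminin receptors of cardiac myocytes were compared in Purkinje cells (PCs), the conduction myocytes of the ventricle, and working ventricular myocytes (VMs) of Ncam-1 WT and Ncam-1 KO mice. The genes were given as a list of symbols with no threshold on their values, and each symbol matched 1 of the 48526 gene identifiers counted in every library. They comprise 3 laminin alpha chains (Lama2, Lama4, Lama5), 2 beta chains (Lamb1, Lamb2), 1 gamma chain (Lamc1), 3 integrin subunits (Itga6, Itga7, Itgb1) and dystroglycan (Dag1). The 12 libraries form 4 groups of 3, named WT PC, KO PC, WT VM and KO VM. All hearts, the WT ones included, came from adult male mice carrying the Cntn2-EGFP transgene, a bacterial artificial chromosome reporter kept in a CD1 background, and KO mice were homozygous for a germline Ncam-1 deletion kept on C57BL/6. Ventricles were enzymatically dissociated and incubated in TMRM, a red mitochondrial dye that marks myocytes. PCs were sorted as red, GFP-positive cells and VMs as red, GFP-negative cells, so the PC group holds whatever cells expressed the reporter in that gate. The labels do not say whether replicates came from separate hearts, so p-values measure only the spread between these libraries, which may in part be technical.

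Laminins are heterotrimers of an alpha, a beta and a gamma chain that polymerize into the basement membrane around each myocyte and each capillary. The alpha chain carries the receptor-binding domains. The alpha2 chain is the main one of striated muscle, the alpha4 and alpha5 chains are known from vessel walls, and beta1, beta2 and gamma1 are shared partners. On the myocyte surface the trimer is bound by integrins, chiefly alpha7 paired with beta1 in muscle, with alpha6 as its close relative, and by dystroglycan, which joins it through dystrophin to the cytoskeleton. Loss of the alpha2 chain causes a muscular dystrophy.

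Because several comparisons set related genes against each other, the longest stretches they share are shown here, with the shared bases in capitals. Among all 45 pairs of members and their 62 annotated transcripts, no pair shared an exact run, on either strand, longer than 24 bases, against reads of 50 bases. For Itga6 and Itga7 the longest run in the same sense had 21 bases. It lies in the coding sequence of both genes. The 61 bases printed for each gene cross a junction of 2 exons. They map to chr2:71849478-71853565 (Itga6) and chr10:128954043-128956642 (Itga7) of GRCm38, both on the plus strand, spans that include the intron. Where the junction lies relative to the shared run was not determined.
Itga6: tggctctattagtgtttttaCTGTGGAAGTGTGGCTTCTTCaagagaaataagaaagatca
Itga7: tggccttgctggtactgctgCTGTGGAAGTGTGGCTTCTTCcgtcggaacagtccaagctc
For Lamb1 and Lamb2 the longest run had 24 bases, in 1 coding exon of each, at chr12:31282668-31282731 and chr9:108481919-108481982, both on the plus strand.
Lamb1: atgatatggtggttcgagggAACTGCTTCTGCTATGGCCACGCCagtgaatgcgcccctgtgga
Lamb2: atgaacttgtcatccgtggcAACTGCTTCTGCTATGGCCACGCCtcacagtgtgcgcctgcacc
Lama2 and Lama5 shared 17 bases, in coding exons at chr10:27212066-27212122 and chr2:180199158-180199214, both on the minus strand.
Lama2: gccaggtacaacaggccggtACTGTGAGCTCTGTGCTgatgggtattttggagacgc
Lama5: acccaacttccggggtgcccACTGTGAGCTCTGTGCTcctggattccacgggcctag
The bases on both sides of each run differ between the partners, so a full read of 50 bases from these transcripts matches no more than 1 member exactly. Of the 10 genes, Lama2 shares 631 exon bases with the antisense transcript Gm48084, which is not among the genes counted, and Itga7 shares 9 bases with Mettl7b, which had at most 1 count in a library. Lamb2 and Dag1 both lie on chromosome 9, as Ncam1 does.

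In the libraries as a whole, between 1532393 and 6761356 counts per library fell outside the mitochondrial genome (median 2873658). The targeted gene Ncam1 had 36.2, 66.3 and 67.0 normalized counts in WT PCs, at most 1 count in a KO PC library, and 0 in the KO VM libraries. Library WT PC 2 stood apart, with 63.9% of read pairs not aligned against 18.8% to 24.7% in the others, and with 11847 genes detected against 13571 to 18129. Cntn2 was high in WT PCs (237, 451 and 533 normalized counts) but in KO PCs was 38.67, 49.2 and 452, so the marker of the gate was low in KO PC 1 and KO PC 2. Summed over 9 Purkinje markers that include Cntn2, replicates 1, 2 and 3 had 316, 266 and 1084 normalized counts in KO PCs. In WT PCs these sums were 653, 1365 and 1460. Cardiomyocyte markers dominated every group, with summed levels between 407600 and 709100 normalized counts. A normalized count is a count divided by the effective size of its library (edgeR's TMM) and multiplied by the geometric mean of those sizes.

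All 10 members were counted in all 12 libraries and passed the filter on low counts in each comparison. The smallest count of any member was 19, for Lama5 in WT PC 2 (95% exact Poisson interval 11.4 to 29.7, counting error only), followed by 27 for Itga6 in KO VM 1 (17.8 to 39.3). Per kilobase of exons, the 2 receptor genes Itgb1 and Dag1 stood above every laminin chain in each group. Itgb1, the beta subunit shared by many integrins, averaged 353 ± 11.4 normalized counts per kilobase in WT VMs, and Dag1 295 ± 23.4 (SD, n = 3). The next gene in that order was Lamb2 at 49.0 ± 9.97, whose libraries did not overlap those of Dag1 in any group.

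Lamb2, Lama2 and Lamc1 were the most abundant of the 6 laminin genes per kilobase in each group. In WT VMs, Lama2 reached 41.8 ± 5.10 normalized counts per kilobase, Lamc1 32.4 ± 2.51 and Lamb1 14.2 ± 1.66 (SD, n = 3). Lamb2 and Lama2 overlapped there, whereas Lama2 lay above Lamc1 and Lamc1 above Lamb1 without overlap. At the low end, Lama5 (10.99 ± 3.28), Lama4 (9.10 ± 0.412) and Itga7 (8.74 ± 2.01) overlapped as neighbours, and Itga6 was lowest at 5.43 ± 1.19, below Itga7 without overlap. In PCs of either genotype the 5 genes from Lamb1 down to Itga7 each overlapped the next. In KO VMs the lowest place was taken by Lama4 (6.21 ± 1.57), overlapping Itga6 (6.63 ± 2.08), while Lama5 had the sixth place (21.9 ± 6.29) and did not overlap Lamb1 below it.

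**Figure D1:**
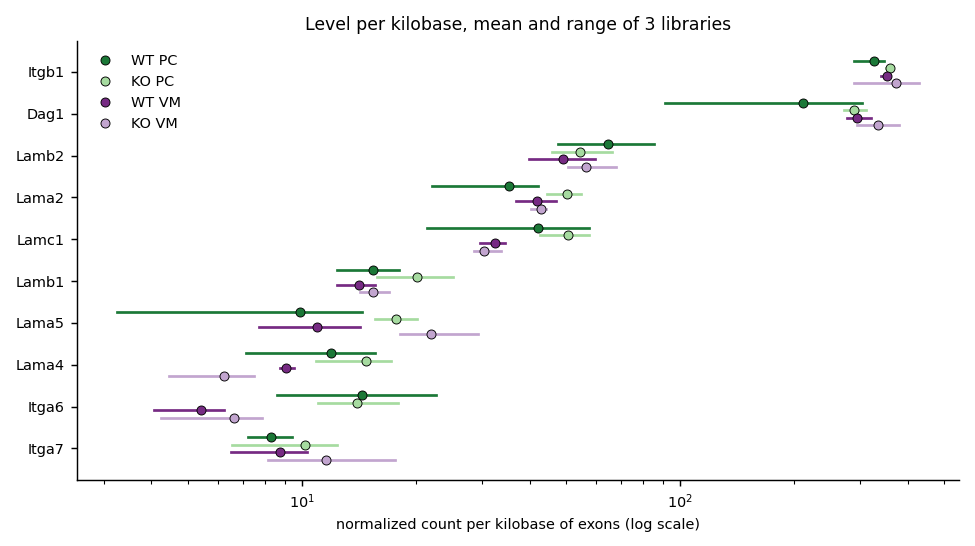
Normalized count per kilobase of exons (log scale) of the 10 genes, with points for the mean and lines for the range of the 3 libraries of each group. Itgb1 and Dag1 lie at the top in all groups, and Itga6 is lowest in WT VMs at 5.43 and Lama4 lowest in KO VMs at 6.21.

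Summed per kilobase, the 3 alpha chains (61.9 ± 8.68) and the 2 beta chains (63.2 ± 10.8) of WT VMs were close, and Lamc1, the gamma partner of both, was at 32.4 ± 2.51. Lama2 made up 54.6% to 68.8% of the alpha chain level over the 12 libraries, and Lamb2 70.3% to 82.9% of the beta chain level. Itgb1 exceeded the sum of Itga6 and Itga7 by between 8.98 and 27.3 times. These sums, shares and the order depend on the length used. With the longest transcript in place of all exons, WT VMs had 100 ± 12.6 for the alpha chains and 77.2 ± 12.4 for the beta chains. By that length Lama2 had 61.6% to 71.2% and Lamb2 59.9% to 75.3%, and Itgb1 exceeded its alpha partners by 4.64 to 14.2 times. Itgb1 and Dag1 kept the first and the second place in each group with either length. By the longest transcript, Lama5 was lowest in WT VMs (10.99 against 11.4 for Itga6) and in PCs of both genotypes. In KO VMs Lama5 then lay below Lamb1 (21.9 against 26.4) and Itga7 (23.4), and Lama4 stayed lowest (12.4).

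PCs were compared with VMs to ask which of these genes differ between conduction and working myocytes. Itga6, the integrin alpha6 subunit, was the member that separated the cell types in both genotypes. Its normalized counts were 77.6, 205 and 109 in WT PCs and 56.3, 36.7 and 54.0 in WT VMs. In KO PCs they were 162, 119 and 99.6, and in KO VMs 38.2, 70.6 and 70.6. All 6 PC libraries lay above all 6 VM libraries, and KO PC 1 and KO PC 2, where Cntn2 was low, were not below KO PC 3. In sorted bulk RNA, fewer cells of a type and less RNA per cell cannot be told apart. Over both genotypes, with genotype as a covariate, Itga6 was 2.36-fold higher in PCs (log2 fold change 1.24, SE 0.26, edgeR quasi-likelihood test, adjusted p = 0.0268). Within genotypes the log2 fold change was 1.38 (SE 0.43, adjusted p = 0.605) in WT and 1.07 (SE 0.29, adjusted p = 0.112) in KO. The adjusted p of the pooled value ran from 1.24e-04 to 0.101 over 19 alternatives and missed 0.05 in 6 of them. These were the replicate block (0.0956) and the fits without KO PC 1 (0.0745), KO VM 1 (0.0780), WT VM 1 (0.0515), WT VM 2 (0.101) or WT VM 3 (0.0784). Without WT PC 2, which had the highest value, the log2 fold change over both genotypes was 0.998 (adjusted p = 0.00646).

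Its relative Itga7, the principal laminin-binding alpha subunit of adult muscle, did not separate the cell types. Itga7 had 58.4, 76.1 and 66.5 normalized counts in WT PCs against 76.0, 83.8 and 52.5 in WT VMs, and 100, 53.0 and 94.9 in KO PCs against 143, 73.2 and 66.0 in KO VMs. The groups overlapped in both genotypes, and the log2 fold change over both was -0.12 (SE 0.24, adjusted p = 0.904). Within a library, where depth and normalization cancel, the count of Itga6 divided by that of Itga7 was 1.33, 2.69 and 1.64 in WT PCs and 0.741, 0.438 and 1.03 in WT VMs. It was 1.61, 2.24 and 1.05 in KO PCs and 0.267, 0.965 and 1.07 in KO VMs, so in each PC library Itga6 had more counts than Itga7, and in 4 of the 6 VM libraries it had fewer. The mean ratio, on the log2 scale and within genotypes, was 2.496-fold higher in PCs. The ratios were chosen after the counts were seen, so they are given as a description with no test. The partner of both, Itgb1, ranged from 1174 to 1751 normalized counts over the 12 libraries, with overlapping groups and a log2 fold change of -0.073 (SE 0.11, adjusted p = 0.875).

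**Figure D2:**
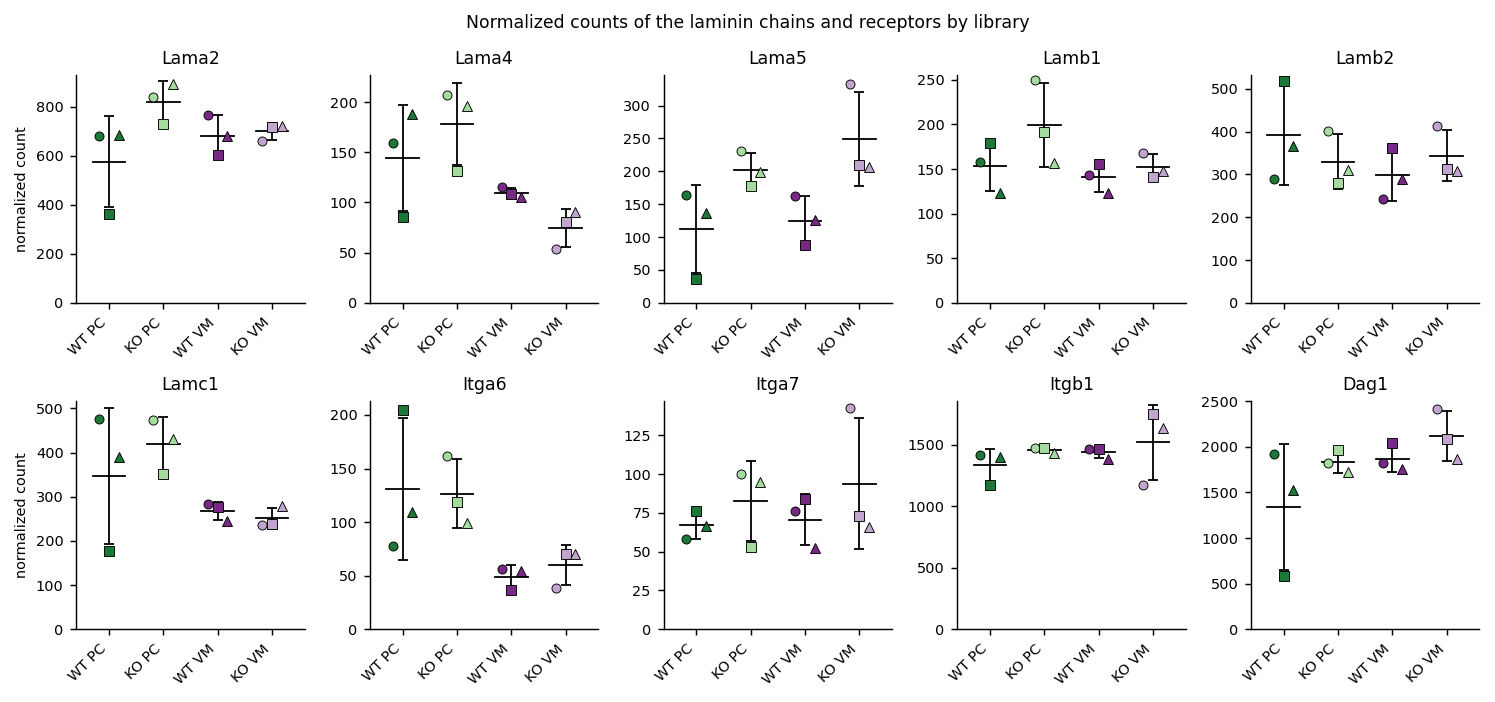
Normalized counts of each gene in each of the 12 libraries (circle, square and triangle for replicates 1, 2 and 3), with the mean and SD of each group in black. Itga6 lies higher in all PC libraries than in all VM libraries, Lama5 is higher in KO than in WT libraries within each cell type, and library WT PC 2 is lowest for Dag1 at 581.

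Among the laminin chains, Lama4 and Lamc1 were higher in PCs than in VMs of KO hearts, and neither passed the adjustment in WT or over both genotypes. Lama4 had 160, 85.8 and 188 normalized counts in WT PCs against 115, 108 and 106 in WT VMs. In KO the levels were 207, 131 and 196 in PCs and 53.7, 80.9 and 90.3 in VMs. The KO groups were apart and the WT groups overlapped through WT PC 2. In KO the log2 fold change of Lama4 was 1.25 (SE 0.25, adjusted p = 0.0255), a 2.38-fold difference, and in WT it was 0.39 (SE 0.32, adjusted p = 0.834). Over both genotypes it was 0.83 (SE 0.23, adjusted p = 0.0903). Without WT PC 2 the WT value was 0.63 (unadjusted p = 0.00914, adjusted p = 0.248), and the pooled value 0.97 (adjusted p = 0.00232).

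Lamc1, the gamma chain of nearly all laminins, had 476, 178 and 389 normalized counts in WT PCs and 284, 276 and 245 in WT VMs. Its counts were 475, 352 and 431 in KO PCs and 236, 239 and 278 in KO VMs. As for Lama4, only WT PC 2 lay below VM libraries of its genotype. The log2 fold change was 0.75 (SE 0.17, adjusted p = 0.0453) in KO, 0.36 (SE 0.33, adjusted p = 0.842) in WT and 0.57 (SE 0.19, adjusted p = 0.175) over both genotypes. Without WT PC 2 it was 0.66 in WT (adjusted p = 0.147) and 0.72 over both (adjusted p = 8.48e-04). In KO, the adjusted p ranged over 14 alternatives from 6.84e-05 to 0.154 for Lama4, which missed 0.05 in 6, and from 0.00575 to 0.507 for Lamc1, which missed it in 9. In the fit of all 12 libraries as 4 groups they were 0.154 and 0.507. For Lama4 the other losses came without KO VM 1 (0.134), KO PC 1 (0.105), KO VM 2 (0.0794), KO VM 3 (0.0741) or KO PC 3 (0.0569). For Lamc1 they included each KO library left out in turn, from 0.0597 without KO PC 2, 0.0915 without KO PC 3, 0.111 without KO VM 3 and 0.162 without KO VM 2 to 0.181 without KO PC 1 and 0.196 without KO VM 1.

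Counting members at an unadjusted p under 0.05, as the study's own criterion does, 1 of 10 passed in WT (Itga6), where 6.44% of all genes tested did, and 0.11% passed the adjustment. In KO 3 of 10 passed (Lama4, Lamc1, Itga6) against 9.56% of genes, and 2 of 10 at an adjusted p against 0.881%. Over both genotypes the same 3 genes passed against 11.7% of genes, and 1, Itga6, at an adjusted p against 1.32%. Libraries of the cell types did not overlap for 1 member in WT, against 13.9% of genes, and for 4 in KO (Lama2, Lama4, Lamc1, Itga6), against 15.6%. The median log2 fold change of the 10 genes over both genotypes was 0.091, beside 0.031 for all genes tested. Without WT PC 2, the count in WT was 3.

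The remaining chains and dystroglycan had no unadjusted p under 0.05 between the cell types in the fits as designed, but Dag1 did over both genotypes with no filter (-0.34, unadjusted p = 0.0224) and without WT PC 1 (-0.46, unadjusted p = 0.0367), and Lamb1 in KO without KO PC 3 (0.52, unadjusted p = 0.0255). Lama2 had a log2 fold change of 0.0051 over both genotypes (SE 0.16), and its KO libraries did not overlap, at 840, 728 and 893 normalized counts in PCs and 660, 716 and 721 in VMs (log2 0.24, SE 0.14, adjusted p = 0.648). Lama5 was at -0.20 (SE 0.26), Lamb1 at 0.26 (SE 0.17) and Lamb2 at 0.18 (SE 0.18). Dag1, the cell-surface link from laminin to dystrophin, was at -0.33 (SE 0.20, adjusted p = 0.563), with 1921, 581 and 1524 normalized counts in WT PCs and between 1723 and 2414 in all libraries of the other groups. The low value of WT PC 2 set its wide spread in WT PCs.

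**Figure D3:**
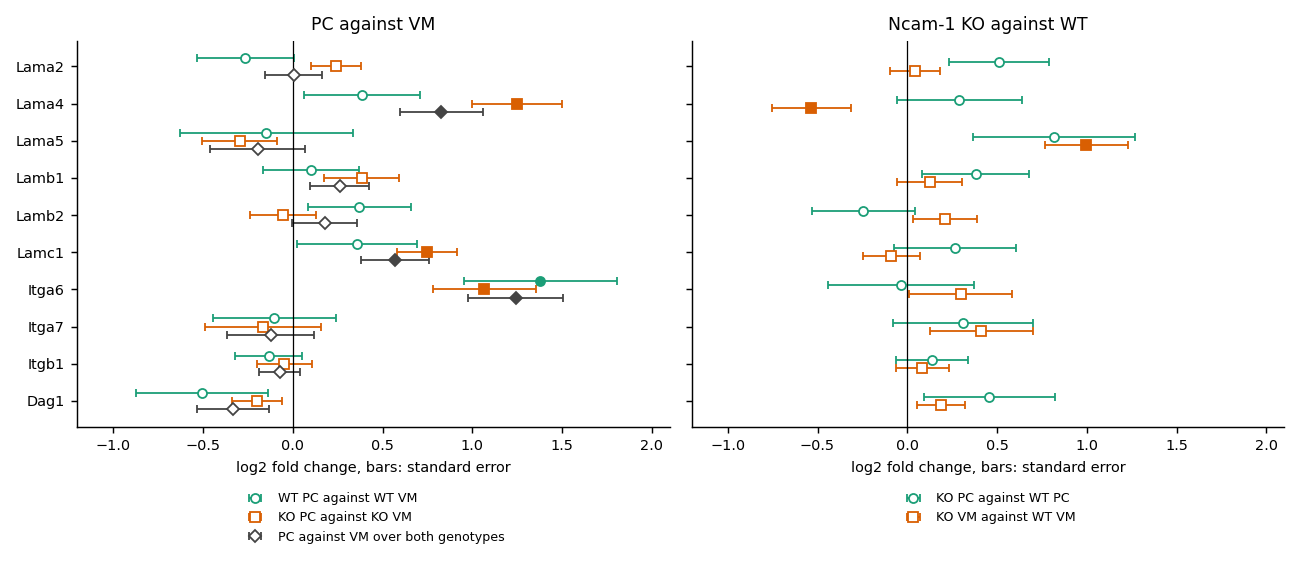
Log2 fold changes from edgeR (points, with bars of 1 standard error) for PCs against VMs on the left and for KO against WT on the right, where filled points have an unadjusted p under 0.05. Itga6 is to the right of 0 in all 3 cell type comparisons (1.38, 1.07 and 1.24), and Lama5 is at 0.82 in PCs and 0.998 in VMs for KO against WT.

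Genes that partner with laminin in the basement membrane were compared in the same way. Of the 8 partners listed, 7 were tested and all 7 had positive log2 fold changes over both genotypes, with a median of 0.74, beside 0.031 for all genes. An unadjusted p under 0.05 was reached by 5 of the 7, against 11.7% of all genes, and an adjusted one by 2, against 1.32%. Col4a1, a chain of the collagen IV network, was at 0.74 (SE 0.17, adjusted p = 0.0449) and Col15a1, of collagen XV, at 1.94 (SE 0.46, adjusted p = 0.0484). Hspg2, which encodes perlecan, was at 0.59 (SE 0.14, adjusted p = 0.0538), and the laminin-binding nidogen Nid2 at 1.66 (SE 0.46, adjusted p = 0.0948). The summed level of the list ran from 984 to 1299 normalized counts in PC libraries and from 604 to 839 in VM libraries, without overlap.

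Markers of other cells were also higher in the PC libraries. All 10 endothelial markers had positive log2 fold changes over both genotypes (median 1.57). Of these, 9 had an unadjusted p under 0.05, against 11.7% of all genes. All 7 fibroblast markers tested (median 1.78) and all 5 leukocyte markers tested (median 2.25) were positive too. Summed endothelial markers were 1301 to 1876 normalized counts in WT PCs and 886 to 2978 in KO PCs, against 440 to 856 in WT VMs and 147 to 565 in KO VMs, and none of the 10 markers was at 3 or fewer counts in all libraries of a group. Fibroblast markers summed to 741 to 1676, 668 to 1069, 231 to 421 and 72.1 to 344 in the same order of groups, with Tcf21 at 3 or fewer counts in each WT PC, WT VM and KO VM library. Leukocyte markers summed to 278 to 696, 268 to 308, 56.2 to 146 and 15.6 to 78.3, with Cd68, C1qa and Cd14 at 3 or fewer counts in all VM libraries. Of 8 smooth muscle and pericyte markers 7 were positive (median 1.30), with sums of 4036 to 5144 in WT PCs, 5193 to 6720 in KO PCs, 4288 to 4809 in WT VMs and 4533 to 4962 in KO VMs. The part of these cells in the higher Itga6, Lama4, Lamc1 and basement membrane genes of PC libraries was not tested. KO PC 1 had the highest endothelial sum (2978) and the highest Lama4 of all libraries (207), KO VM 1 the lowest of both (147 and 53.7). WT PC 2 had the highest fibroblast and leukocyte sums of all libraries (1676 and 696) and the highest endothelial sum of WT PCs (1876). Its Itga6 was the highest (205), while its Lama4 (85.8) and Lamc1 (178) were the lowest among PC libraries. In replicates 1, 2 and 3, endothelial sums in KO PCs were 2978, 1414 and 886, with Itga6 at 162, 119 and 99.6. In KO VMs the sums were 147, 565 and 493, with Itga6 at 38.2, 70.6 and 70.6. In WT PCs they were 1320, 1876 and 1301, with Itga6 at 77.6, 205 and 109. WT VMs had 856, 440 and 536, with Itga6 at 56.3, 36.7 and 54.0.

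**Figure D4:**
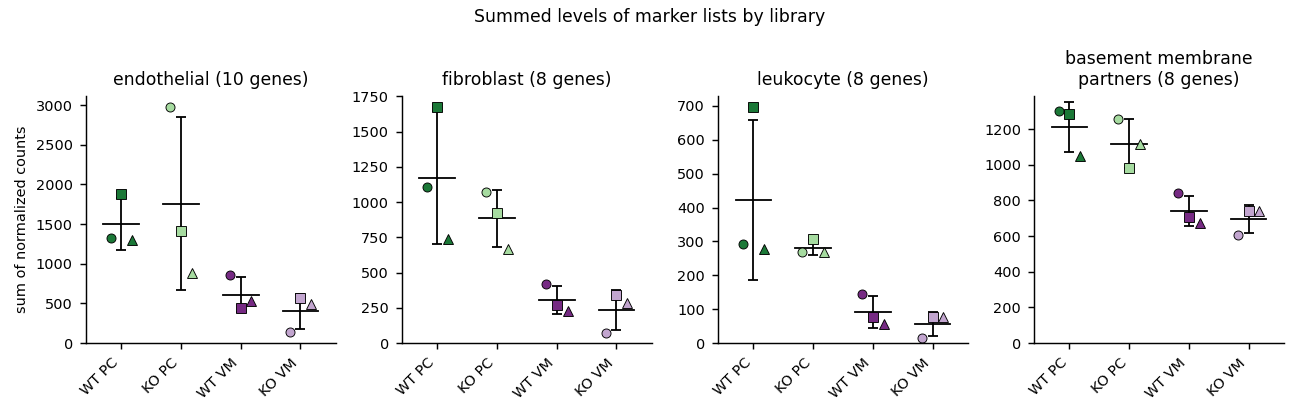
Summed normalized counts of the endothelial, fibroblast and leukocyte marker lists and of the basement membrane partners in each library (circle, square and triangle for replicates 1, 2 and 3), with mean and SD by group. In all 4 lists the PC libraries lie above the VM libraries, from 886 against at most 856 for the endothelial list.

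The members do their work through the dystrophin complex, the enzymes that glycosylate dystroglycan and the adhesion proteins on the integrin tail, and these genes were compared between PCs and VMs as well. Against 11.7% of all genes over both genotypes, 1 of 12 genes of the dystrophin glycoprotein complex had an unadjusted p under 0.05, Sgce, encoding epsilon-sarcoglycan (log2 0.99, SE 0.45, adjusted p = 0.404), and the list had a median of 0.057. In WT alone Dtna was lower (-0.48, SE 0.21, adjusted p = 0.759) and in KO alone Utrn was higher (0.40, SE 0.15, adjusted p = 0.367), both at an unadjusted p under 0.05. Of 12 glycosylation genes tested, none did in the edgeR fit, and their median was -0.038. Among 13 adhesion genes, 1 did, the focal adhesion gene Zyx (0.72, SE 0.31, adjusted p = 0.362), with a median of 0.066. In KO alone 3 of the 13 had an unadjusted p under 0.05, against 9.56% of all genes. These were Pxn (1.40, SE 0.55, adjusted p = 0.369), Lims2 (1.86, SE 0.81, adjusted p = 0.466) and Ptk2 (0.60, SE 0.27, adjusted p = 0.486). Ilk was listed at 0 in every library, and since its annotation overlaps Rrp8 and Taf10 on the other strand, the value cannot be read as absence of the transcript. Of 7 other laminin and matrix receptors tested, 2 did, Itgb5 (0.71, SE 0.27, adjusted p = 0.253) and the collagen receptor subunit Itga1 (0.72, SE 0.27, adjusted p = 0.262). In KO alone Itga1 was at 1.27 (SE 0.28, adjusted p = 0.0413) and Itgb5 in WT alone at 1.32 (SE 0.35, adjusted p = 0.505). Of 5 other laminin chains 3 were tested and 0 had an unadjusted p under 0.05 over both genotypes in the edgeR fit. The 5 chains summed to between 39.4 and 271 normalized counts, and Lama1 and Lamc3 had at most 3 counts in each library. Within genotypes, Lamb3 in WT (1.72, SE 0.65, adjusted p = 0.709) and Lama3 in KO (2.73, SE 0.85, adjusted p = 0.183) had an unadjusted p under 0.05. Over these 5 lists and the basement membrane partners, 16.7% of genes tested did over both genotypes, against 11.7% of all genes. In WT the share was 11.1%, against 6.44%, and in KO 20.4%, against 9.56%.

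KO was compared with WT within each cell type to ask whether loss of NCAM-1, a homophilic cell adhesion molecule, was accompanied by a change in the laminin system. The alpha5 chain was the member with the smallest p in VMs. Lama5 had 162, 87.5 and 126 normalized counts in WT VMs and 332, 209 and 207 in KO VMs, without overlap. The log2 fold change was 0.998 (SE 0.23, unadjusted p = 5.24e-04), a 1.997-fold difference that ranked 17 of 10737 genes but missed the adjustment (edgeR, adjusted p = 0.331). In PCs Lama5 had 164, 37.1 and 137 normalized counts in WT and 230, 178 and 198 in KO, again without overlap, with a log2 fold change of 0.82 (SE 0.45, adjusted p = 0.978). Of 6 KO libraries, all had more Lama5 than each of the WT libraries of the same cell type.

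In VMs, the direction of Lama5 held in all 14 alternatives, with log2 fold changes from 0.74 to 1.22, unadjusted p from 4.05e-07 to 0.0191 and adjusted p from 5.25e-04 to 1. An adjusted p under 0.05 was given by 1 of these, the fit with no filter on low counts. KO VM 1 was the highest library, and without it the log2 fold change was 0.74 (unadjusted p = 0.00498, adjusted p = 0.922).

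The start of Lama5 is shown because it is the member with the lowest p between genotypes. The window holds the 250 bases before the RefSeq start on GRCm38.p6 (chr2:180225860-180226109, minus strand), printed 5′ to 3′ with each GC box in capitals, that is GGGCGG or its reverse complement CCGCCC.
Lama5: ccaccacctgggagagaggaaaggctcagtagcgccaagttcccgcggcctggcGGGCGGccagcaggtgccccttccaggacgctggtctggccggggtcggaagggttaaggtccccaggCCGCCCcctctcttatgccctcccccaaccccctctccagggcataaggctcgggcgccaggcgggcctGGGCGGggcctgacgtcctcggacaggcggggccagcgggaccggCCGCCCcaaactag
It has 72.4% G and C and 4 GC boxes, none overlapping another, and no TATAAA on either strand. Of 32851 promoter windows of this length, 32.7% hold at least 1 GC box and 12.4% a TATAAA. A match is a string of letters and not a measured binding site.

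Lama4 was lower in KO VMs than in WT VMs, with no overlap between 53.7, 80.9 and 90.3 normalized counts and 115, 108 and 106. The log2 fold change was -0.54 (SE 0.22, unadjusted p = 0.0263, adjusted p = 0.934). Without KO VM 1 it was -0.35 with an unadjusted p of 0.116, without WT VM 1 the p was 0.0623, and without WT VM 2 it was 0.05004. The fit of all 12 libraries gave an unadjusted p of 0.097. In PCs Lama4 overlapped between genotypes (log2 0.29, SE 0.35, adjusted p = 0.978). Subtracting the KO effect in VMs from that in PCs gave 0.82 on the log2 scale for Lama4 (SE 0.42, unadjusted p = 0.0683, adjusted p = 0.998), and -0.20 for Lama5 (SE 0.54, adjusted p = 0.998), so neither gene was shown to respond differently in the 2 cell types.

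Both chains were also set against Lama2, the prevalent alpha chain, within each library, again as a description of genes already singled out by their counts. The count of Lama5 divided by that of Lama2 was 0.211, 0.146 and 0.185 in WT VMs and 0.503, 0.292 and 0.287 in KO VMs. In PCs it was 0.241, 0.103 and 0.199 in WT and 0.274, 0.244 and 0.222 in KO, where the groups overlapped. The ratio was 1.68-fold higher in KO over both cell types. The count of Lama4 divided by that of Lama2 was 0.15, 0.180 and 0.156 in WT VMs and 0.0814, 0.113 and 0.125 in KO VMs. It was 0.234, 0.238 and 0.274 in WT PCs and 0.247, 0.180 and 0.219 in KO PCs, so the genotypes were apart in VMs and overlapped in PCs. This ratio was 1.34-fold lower in KO and 1.77-fold higher in PCs. In that ratio WT PC 2 (0.238) lay with the other WT PC libraries. For Lamb1 over Lamb2, the alternative beta chains, the ratio was 0.506 to 0.688 in KO PCs and 0.336 to 0.593 over the other groups. Per kilobase, Lama4 made up 14.9% ± 1.71 of the alpha chain level in WT VMs and 8.82% ± 2.48 in KO VMs, while Lama5 made up 17.5% ± 2.9 and 30.7% ± 7.54 (SD, n = 3).

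**Figure D5:**
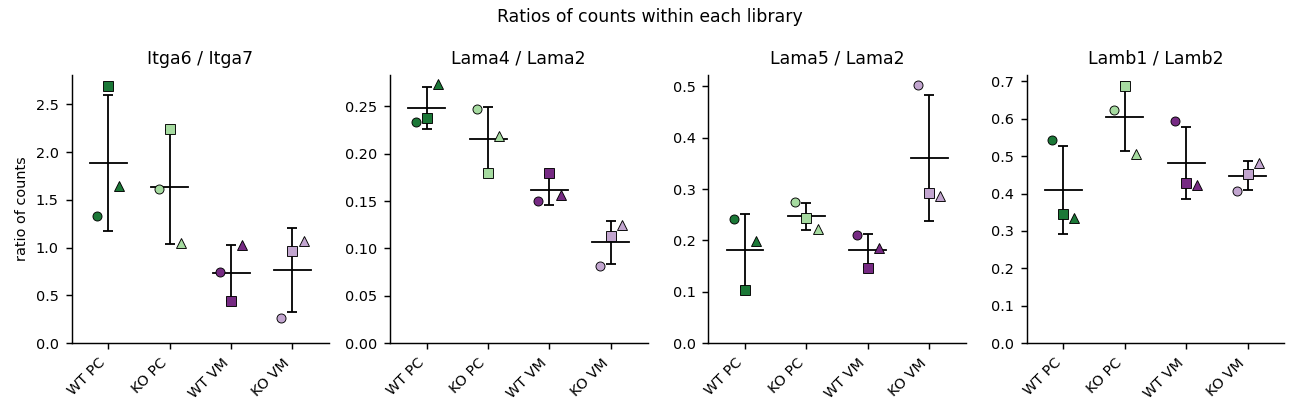
Ratios of counts of related genes within each library (circle, square and triangle for replicates 1, 2 and 3), with mean and SD by group. Itga6 over Itga7 and Lama4 over Lama2 are higher in PCs, Lama5 over Lama2 is highest in KO VMs (0.287 to 0.503), and Lamb1 over Lamb2 is 0.506 to 0.688 in KO PCs and 0.336 to 0.593 in the other groups.

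In VMs, 2 of 10 members (Lama5 higher, Lama4 lower) had an unadjusted p under 0.05, where 5.12% of all genes did, and 0 passed the adjustment, as 0.0373% of genes did. These 2 were also the members whose libraries did not overlap, against 9.63% of genes. In PCs 0 of 10 had an unadjusted p under 0.05 in the edgeR fit, where 3.2% of genes did, and none by DESeq2 or voom. Libraries did not overlap for 3 members in PCs, against 9.52% of genes. At the adjusted threshold 0% of genes passed there. Those 3 were Lama5, Lama2 and Itgb1, all higher in KO PCs. Lama2 had 681, 361 and 687 normalized counts in WT PCs and 840, 728 and 893 in KO PCs (log2 0.51, SE 0.28, adjusted p = 0.978). Itgb1 had 1417, 1176 and 1403 in WT PCs and 1473, 1476 and 1434 in KO PCs (log2 0.14, SE 0.20). WT PC 2 was the lowest PC library for Lama5, Lama2, Itgb1 and Dag1, and without it the log2 fold changes of KO against WT PCs were 0.43 for Lama5, 0.27 for Lama2 and 0.10 for Dag1. The median log2 fold change of the 10 genes was 0.30 in PCs, beside 0.0014 for all genes, and 0.16 in VMs, beside -0.0082. In KO against WT PCs, 2 of 9 Purkinje markers were positive (median -1.13). At an unadjusted p under 0.05, 3 of them were lower and 1 higher, against 3.2% of all genes. Of those tested there, 5 of 10 endothelial, 2 of 7 fibroblast and 3 of 6 leukocyte markers were positive. The part of such differences in the values of the members was not tested. For the KO effect in PCs minus that in VMs, 0 of 10 passed in the edgeR fit and none by DESeq2 or voom, against 2.91% of genes at an unadjusted p under 0.05 and 0% at an adjusted one.

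The other members had no unadjusted p under 0.05 between genotypes in the fits as designed. Lama2 in PCs did in the edgeR fit of all 12 libraries (0.51, unadjusted p = 0.0306, adjusted p = 0.568). In VMs Lamc1 was at -0.089 (SE 0.16), Lamb1 at 0.13 (SE 0.18), Lamb2 at 0.21 (SE 0.18) and Lama2 at 0.041 (SE 0.14). Among the receptors in VMs, Itga6 was at 0.30 (SE 0.29), Itga7 at 0.41 (SE 0.29), Itgb1 at 0.082 (SE 0.15) and Dag1 at 0.19 (SE 0.14). In PCs the standard errors were wider, from 0.20 for Itgb1 to 0.45 for Lama5, and Itga6 was at -0.034 (SE 0.41). Dag1 in PCs was at 0.46 (SE 0.36), with WT PC 2 at 581 normalized counts.

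Markers of other cells were compared between genotypes in VMs as well. None of the 10 endothelial markers was positive in KO against WT VMs (median log2 -0.71). Of these, 2 were lower at an unadjusted p under 0.05, against 5.12% of all genes called in either direction, and 0 at an adjusted one. Among those tested, 1 of 6 fibroblast and 1 of 4 leukocyte markers were positive. Of 8 smooth muscle and pericyte markers 3 were positive (median -0.58), and their sums overlapped between genotypes. These sums also overlapped between WT PCs and WT VMs, where 7 of the 8 were positive (median 0.66), so they do not follow most of the list. In that list Myh11 was lower at -1.89 (SE 0.40, adjusted p = 0.185) and Pdgfrb at -2.29 (SE 0.72, adjusted p = 0.821). Both had an unadjusted p under 0.05 in the edgeR fit. Summed endothelial markers were 856, 440 and 536 normalized counts in WT VMs and 147, 565 and 493 in KO VMs, overlapping groups in which KO VM 1 was lowest. Without KO VM 1, Lama5 was still higher at 0.74 while Lama4 no longer had an unadjusted p under 0.05. The part of other cells in these 2 differences was not tested. Of 9 cardiomyocyte markers 6 were positive in KO against WT VMs, with a median of 0.063. An unadjusted p under 0.05 was reached by 2, against 5.12% of all genes, and neither passed the adjustment. They were Ryr2 (0.49, SE 0.16, adjusted p = 0.881) and Tnnt2 (0.32, SE 0.15, adjusted p = 0.934).

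Over the 6 lists of genes around the members, 4 of 53 tested in VMs had an unadjusted p under 0.05 (7.55%, against 5.12% of all genes) and 1 of 54 in PCs (1.85%, against 3.2%), and none passed the adjustment. In VMs the dystrophin complex and the glycosylation genes gave 0 calls at an unadjusted p under 0.05 among 12 and 12 tested in the edgeR fit. Itgb5 was higher (0.65, SE 0.24, adjusted p = 0.934) and Itga1 lower (-0.58, SE 0.26, adjusted p = 0.934) among 7 other receptors tested, Nid1 was lower among 7 basement membrane partners (-0.92, SE 0.43, adjusted p = 0.934), and the paxillin gene Pxn was lower among 13 adhesion genes (-0.996, SE 0.45, adjusted p = 0.934). In PCs the only gene of these lists with an unadjusted p under 0.05 was Lamb3, a beta chain known from epithelia, which was lower in KO (-1.83, SE 0.66, adjusted p = 0.978). Its WT PC libraries ranged from 40.5 to 238 normalized counts, the highest being WT PC 2, and its KO PC libraries from 22.1 to 38.67.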

How the data were processed

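The authors sequenced RNA of sorted cells as paired-end reads of 50 bases, aligned them with STAR 2.5.0c to mm10 and counted pairs per gene with HTSeq 0.6.0 (Ensembl GTF release 74); strandedness was not stated. The deposited values are raw counts per gene, 1 file per library, which the authors did not normalize in these files. HTSeq's classes of unassigned pairs were left out of tests.

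Each comparison used edgeR 4.0.16 in R 4.3.3: TMM, genes with a mean normalized count above 5, the quasi-likelihood test and Benjamini-Hochberg adjustment over all genes tested (10737 to 11822). Pairs of groups were fitted on their 6 libraries, and PCs against VMs over both genotypes and the difference of genotype effects on all 12. Gene positions, exon lengths and transcripts came from GENCODE M21 and promoter windows from RefSeq. Alternatives used DESeq2 1.42.0, limma 3.58.1 (voom), other filters and normalizations, no mitochondrial genes, a replicate block, 1 fit of 4 groups, and each library left out. Steps were tested on simulated counts.

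The members and gene lists were chosen with earlier results of these data known. Named besides the 10 members are up to 4 genes per list and comparison with the smallest p under 0.05, from the lists that hold no markers, plus Ncam1 and Cntn2. Not every gene that met this rule is named. Some single markers and Ilk are named outside it, to describe their counts or fold changes. Same-numbered PC and VM libraries correlated between -0.0096 and 0.207 after centring each group (8100 genes), and the numbers were not taken as pairs. Intervals of counts cover counting error only, since reads carried no molecular identifiers.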

Additional observations from a re-analysis of the deposited data

Results flagged for a closer look

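No member met a rule for a closer look, but 5 genes of the surrounding lists did, because the difference between the genotype effect in PCs and that in VMs had an unadjusted p under 0.05 in the edgeR fit of 12 libraries. Of all genes tested 2.91% did so, and for each of the 5 the adjusted p was 0.998. Itgb5, an integrin beta subunit, had a difference of -1.30 on the log2 scale (unadjusted p = 0.00855), with 113 to 238 normalized counts in WT PCs, 100 to 108 in KO PCs, 59.1 to 67.8 in WT VMs and 77.0 to 134 in KO VMs. Itga1, a collagen receptor subunit, had a difference of 1.11 (unadjusted p = 0.0334), with 87.3 to 150 normalized counts in WT PCs, 118 to 251 in KO PCs, 80.6 to 151 in WT VMs and 63.6 to 89.9 in KO VMs. The laminin beta chain Lamb3 had -1.82 (unadjusted p = 0.0338), and its highest library was WT PC 2 at 238 normalized counts. The laminin alpha chain Lama3 had 2.94 (unadjusted p = 0.0422) on at most 19 counts in a library. Itgb1bp2, which encodes the muscle protein melusin that binds the integrin beta1 tail, had -0.69 (unadjusted p = 0.0473), with WT PC 2 again highest at 718 normalized counts.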

How the results depend on the processing

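Of 940 member fold changes under an alternative, 876 kept their direction and their side of an unadjusted p of 0.05, 13 passed it newly, 4 no longer passed and 47 changed sign, each of a gene with no call there. Of 98 counts and orders 82 were kept, and of 96 ratios 94. The number of members with an unadjusted p under 0.05 in WT PCs against WT VMs went from 1 to 3 with voom and ran from 1 to 3 with single libraries left out, 3 being without WT PC 2. For KO against WT PCs it went from 0 to 1 with no filter and in 1 fit of all 12 libraries. It ran from 0 to 1 with single libraries left out (1 without WT PC 1). The gene was Lama2 in the fit of all 12. It was Lama5 with no filter (unadjusted p = 0.0297), without WT PC 1 (0.0421) and with a replicate block (0.0353), all by edgeR. For KO against WT VMs it went from 2 to 1 in the fit of all 12, and from 1 to 2 with single libraries left out (1 without KO VM 1, WT VM 1 or WT VM 2). For the difference of genotype effects it ran from 0 to 1 (1, Lama4, without KO PC 2 or WT PC 3). PCs against VMs over both genotypes went from 3 to 4 with no filter and without WT PC 1 (Dag1), and KO PCs against KO VMs from 3 to 4 without KO PC 3 (Lamb1). The cause was not tested. By the longest transcript's length, 4, 3, 4 and 5 of the 10 genes kept their rank in PCs of WT, PCs of KO, VMs of WT and VMs of KO.

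With the replicate number as a block, KO against WT PCs gave 1 member in place of 0, Itga6 there changed from -0.034 to 0.046, Lama2 between cell types was -0.019, and the adjusted p of Itga6 between cell types was 0.0956; no other count moved. Not every pair of same-numbered libraries correlated above 0.1, and the numbers were not taken to pair them. This does not show that the libraries are unpaired, because libraries with different numbers were not set beside them.

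Changes of sign were as follows. With voom, Lama5 was 0.19 and Lamb1 -0.055 between WT PCs and WT VMs, Itga6 was 0.31 in KO against WT PCs, and the differences of genotype effects were 0.091 for Itga7 and -0.047 for Itgb1. Lama2 between cell types was -0.0040 with no filter and -0.013 without mitochondrial genes. With single libraries left out, WT PCs against WT VMs ran from -0.47 to 0.24 for Lama5, -0.031 to 0.26 for Lamb1 and -0.28 to 0.036 for Itga7. KO PCs against KO VMs ran from -0.21 to 0.074 for Lamb2, -0.38 to 0.24 for Itga7 and -0.22 to 0.069 for Itgb1. Over both genotypes Lama2 ran from -0.068 to 0.13 and Itga7 from -0.21 to 0.044. KO against WT PCs ran from -0.44 to 0.014 for Lamb2, -0.037 to 0.54 for Lamc1 and -0.33 to 0.43 for Itga6. KO against WT VMs ran from -0.036 to 0.13 for Lama2, -0.014 to 0.62 for Itga7 and -0.035 to 0.24 for Itgb1. The differences of genotype effects ran from -0.56 to 0.13 for Lama5, -0.61 to 0.14 for Itga6, -0.31 to 0.32 for Itga7, -0.11 to 0.17 for Itgb1 and -0.079 to 0.60 for Dag1. The log2 ratio of Itga6 to Itga7 in KO minus WT ran from -0.33 to 0.17, and that of Lamb1 to Lamb2 in PCs minus VMs from -0.026 to 0.17.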
